A study of Mus musculus with 8 samples.

Results

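The clustered protocadherin genes were taken as the protein-coding genes of the autosomes and X whose RefSeq symbol starts with Pcdha, Pcdhb or Pcdhg. The rule found 57 of 21631 genes, 14 in the alpha cluster, 22 in the beta cluster and 21 in the gamma cluster, all on chromosome 18 of the mouse build mm10. The locus runs from 36930285 to 37841873, 911.589 kb in all. The alpha cluster spans 36930285 to 37188897 (258.613 kb), the beta cluster 37264998 to 37521419 (256.422 kb) and the gamma cluster 37661775 to 37841873 (180.099 kb). These 57 genes were chosen by name and position, not by a measured value.

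The study profiled regulatory T cells (Treg), the CD4 T cells that hold back immune responses, from C57BL/6 mice aged 8 to 12 weeks. H3K9me2, the dimethylation of lysine 9 of histone H3 found in silent chromatin, was mapped with CUT&RUN in tumour Treg, with 3 libraries of the genotype JMJD1CTregcKO (cKO) and 3 of JMJD1CWT (WT). JMJD1C belongs to a family of demethylases that act on this residue, and in the cKO it is deleted in Treg, per the label. The peak lists hold no transcript levels, so the deletion was not checked here. The Cre driver and the kind of tumour are not given in the sources used here. Open chromatin was profiled by ATAC-seq in JMJD1CWT mice, with 1 library of tumour Treg and 1 of spleen Treg. All cells were enriched on magnetic beads and then sorted by fluorescence. Nothing in the labels says that the 3 libraries of a group came from separate mice, so a p-value measures the spread between these libraries, which may be technical.

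Clustered protocadherins are cell-surface adhesion proteins of the cadherin superfamily, known above all from neurons, where each cell uses its own choice of isoforms to tell itself from its neighbours. In the alpha and gamma clusters each variable exon carries its own promoter and is spliced to constant exons at the far end of the cluster, so the gene spans nest inside one another and share that end. Beta genes are single-exon genes with no constant exons. Promoter choice in neurons depends on the insulator protein CTCF and cohesin, and unused promoters are held silent by DNA methylation and H3K9 methylation. The C-type genes (Pcdhac1, Pcdhac2, Pcdhgc3, Pcdhgc4 and Pcdhgc5) lie next to the constant exons and are regulated apart from the rest.

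The measure was the percent of a region covered by the authors' H3K9me2 peaks, in each library alone. Depth was 24774509 to 30313851 tags per H3K9me2 library and 11293674 (tumour) and 11068821 (spleen) tags per ATAC library. Peaks covered 5.36%, 4.45% and 3.63% of the autosomes and X in the 3 cKO libraries (always given in the order of replicates 1, 2 and 3) and 3.89%, 4.10% and 3.39% in the 3 WT libraries, with cKO replicate 1 the highest of the 6 in total. Per the file headers, cKO replicates 1 and 3 carry the same knockout number in their tag directories, and the directory name prefixes of the 2 genotypes do not overlap, so a batch behind them cannot be told apart from genotype. A covered percent in sorted cells mixes how many cells carry the mark at a site with how much each carries, and these cannot be told apart. ATAC peaks lay in the gene span with 5 kb flanks of 6 of 7 Treg markers in both tissues (Ctla4 had none), of 2 of 4 B cell markers in both, of 2 of 4 myeloid markers in tumour and 0 in spleen, and of 0 of 4 CD8 T and NK cell markers. Neural markers had an ATAC peak at 3 of 5 genes in tumour (Rbfox3, Tubb3 and Map2) and 0 in spleen, and the part of other cells in the results on the locus was not tested.

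H3K9me2 peaks were present in each cluster as short, scattered stretches, with gaps that no library covered. The number of peaks in the locus was 68, 48 and 38 in the cKO and 38, 50 and 39 in WT. Their median length was 628.5 to 788.5 bp, against 628 to 635 bp in the genome, and the longest was 2318 to 3302 bp. Locus coverage was 6.86%, 4.86% and 4.02% in the cKO and 4.23%, 4.68% and 3.77% in WT. Dividing by the genome-wide coverage of the same library gave 1.28, 1.09 and 1.11 in the cKO and 1.09, 1.14 and 1.11 in WT, so the locus held more than the genome in 6 of 6 libraries. Of 2877 tiles of the same length across the genome, 22.5% also did so in all 6. The rest of chromosome 18 lay between 0.94 and 1.01 times the genome.

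The 3 clusters differed in how often and how strongly they were marked. Alpha coverage was 4.59%, 3.08% and 2.83% in the cKO and 2.82%, 3.01% and 4.13% in WT, above the genome in 1 library (WT replicate 3, 1.22 times). Beta coverage was 9.12%, 4.26% and 3.76% in the cKO and 5.54%, 5.56% and 3.44% in WT, 0.96 to 1.70 times the genome and above it in 5 libraries. Gamma coverage was 6.97%, 6.72% and 5.72% in the cKO and 5.20%, 6.00% and 3.97% in WT, which is 1.17 to 1.57 times the genome and above it in 6 of 6 libraries. Of tiles as long as the gamma cluster, 17.7% were above the genome in all 6 libraries.

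The gamma peaks ranked low in their own lists, while those of the other clusters ranked high. By the score the authors' caller gave each peak, the median alpha peak stood at 13% of its list from the top in cKO replicate 1 and at 14.5 to 19.5% in 4 of the others, but at 50.9% in WT replicate 1, where the cluster held 5 peaks. The median beta peak stood at 10.4 to 28.9%, and the median gamma peak at 48.4 to 74.4%. In each of the 6 libraries the gamma median was farther down the list than the alpha and the beta median. Of 74 beta peaks summed over the libraries, 72 were in the stronger 50% of their lists, as were 47 of 52 alpha peaks and 31 of 94 gamma peaks. With only that stronger 50% kept, gamma coverage was above the genome in 2 of 6 libraries (0.29 to 1.73 times), whereas beta was above it in 6 of 6 (1.59 to 3.04 times) and alpha in 5 of 6 (0.51 to 1.96 times). With the weaker peaks left out, the gamma cluster was thus no longer above the genome in 4 of 6 libraries.

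**Figure D1:**
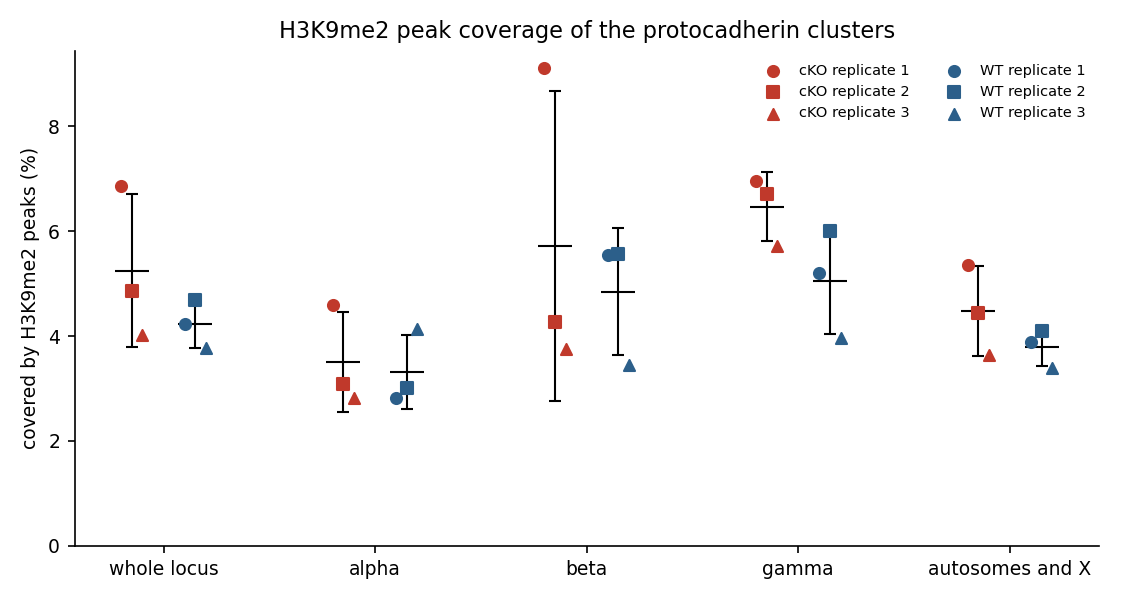
Percent covered by H3K9me2 peaks (vertical axis) in the whole locus, each cluster and the autosomes and X, with 1 point per library (red cKO, blue WT, shape by replicate number) and bars for the mean and SD of 3 libraries. The gamma cluster lies above the genome in 6 of 6 libraries (1.17 to 1.57 times), and cKO replicate 1 is the highest beta library at 9.12%.

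The comparison of cKO with WT asked whether loss of a demethylase of this residue goes with more H3K9me2 at these genes. No region differed beyond the spread between libraries. Locus coverage averaged 5.25% ± 1.46 (SD, n = 3) in the cKO and 4.23% ± 0.456 (SD, n = 3) in WT, a difference of 1.02 percentage points (exact two-sided permutation test, p = 0.4). The difference was 0.180 points in alpha (exact permutation p = 0.6), 0.864 in beta (exact permutation p = 0.8) and 1.41 in gamma (exact permutation p = 0.2). The gamma means were 6.47% ± 0.660 and 5.06% ± 1.03 (SD, n = 3 each), with the lowest cKO library (5.72%) below the highest WT library (6.00%). Adjusted over these 4 regions each exact permutation p was 0.8, and 3 libraries against 3 cannot give an unadjusted p below 0.1. Without cKO replicate 1 the locus difference fell to 0.213 points, and the alpha and beta differences turned negative (-0.366 and -0.838). Divided by genome-wide coverage, the alpha and beta differences were also negative (-0.116 and -0.0344 times the genome).

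Flanking sequence set these values in context. In the 1 Mb before the locus coverage was 3.89%, 5.04% and 3.93% in the cKO and 1.99%, 2.42% and 2.97% in WT, with no overlap of the groups. In the 1 Mb after it coverage was 4.77%, 5.05% and 4.93% against 2.55%, 4.14% and 3.72%, again with no overlap. The share of all 1 Mb windows without overlap in covered percent was not computed, so how common this is cannot be told here. Among 1 Mb windows scaled to the genome, the groups did not overlap in 14.8% higher in the cKO and 14.1% lower. Divided by the genome-wide coverage of each library, the groups overlapped in both flanks (0.73, 1.13 and 1.08 against 0.51, 0.59 and 0.88 before the locus, and 0.89, 1.14 and 1.36 against 0.65, 1.01 and 1.10 after it). For the locus as a whole the groups overlapped on both scales. Among 1 Mb windows scaled to the genome, 373 of 2571 passed limma's test with Benjamini-Hochberg adjustment (14.5%), and neither of the 2 windows that touch the locus did (limma adjusted p = 0.132 for 36000001 to 37000000 and 0.753 for 37000001 to 38000000). The first of these holds only the start of the alpha cluster. Over all 1 Mb windows tested the cKO mean was higher in 59.8%, and it was higher in both of these. The ratio of the first to the genome was 0.81, 1.13 and 1.11 in the cKO and 0.50, 0.63 and 0.94 in WT.

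**Figure D2:**
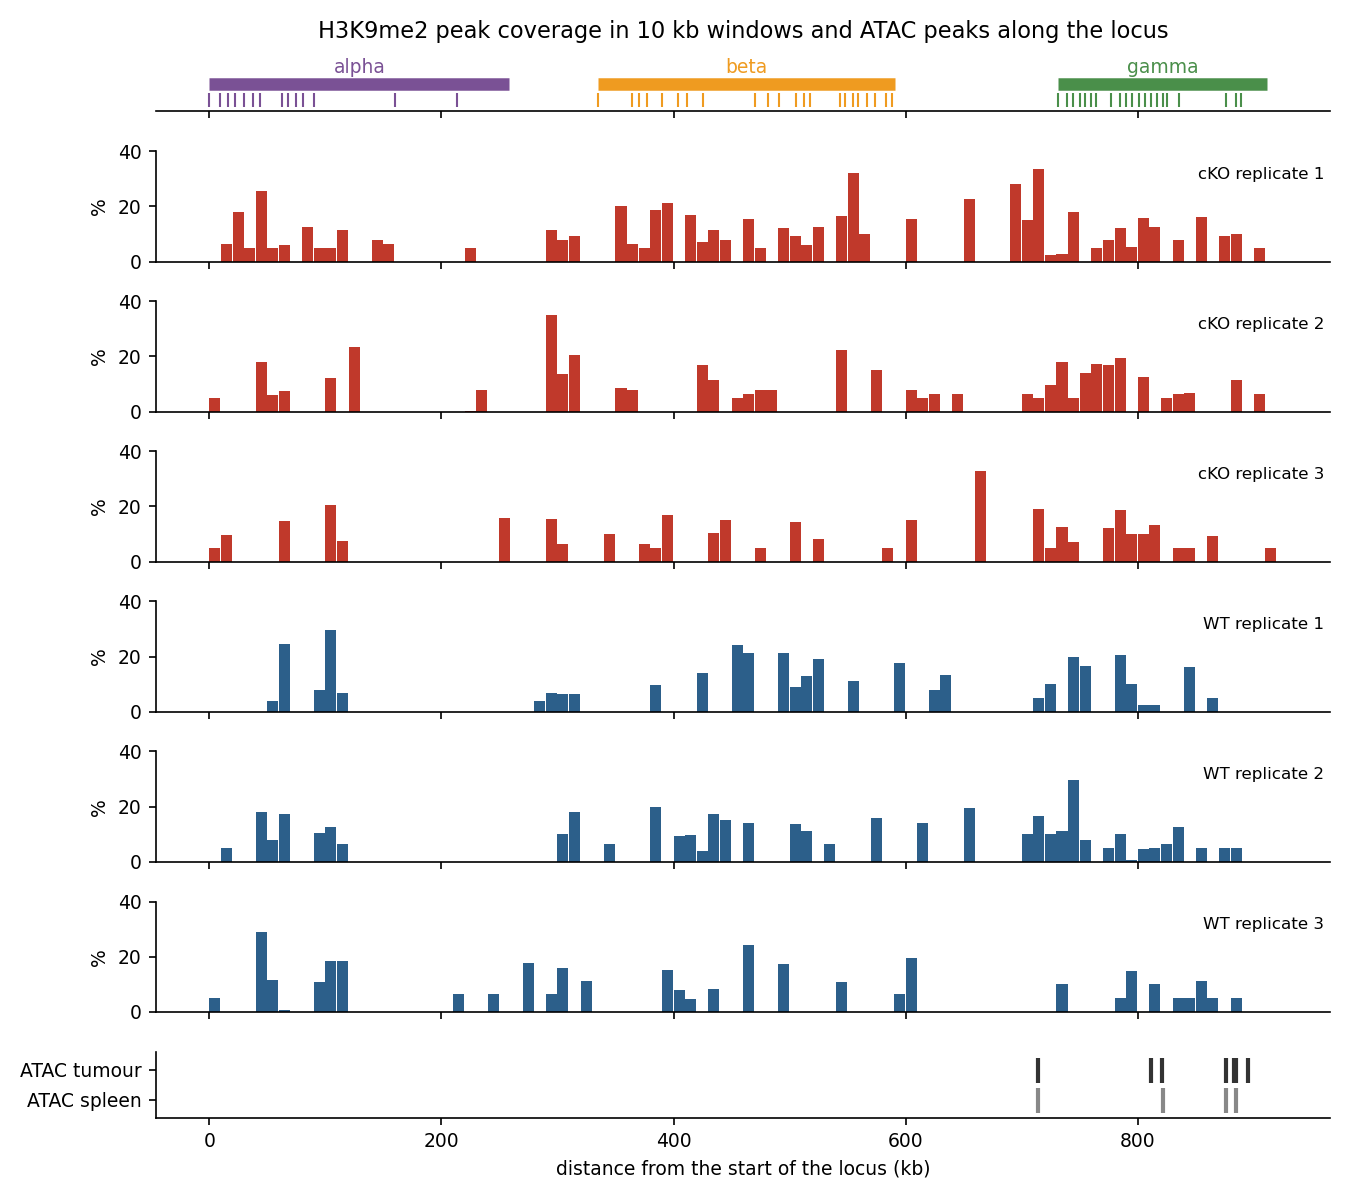
Percent covered by H3K9me2 peaks in 10 kb windows (vertical axes, 6 libraries) against distance from the start of the locus in kb, with the clusters as coloured bars, gene starts as ticks, and ATAC peaks of tumour and spleen Treg in the lowest row. Every ATAC peak lies in or just before the gamma cluster, and all 6 libraries are empty over 62.515 kb that run from the end of the Pcdha12 segment into the C-type part of the alpha cluster.

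Tiling the locus avoided the nesting of the gene spans. Of 92 windows of 10 kb, 75 reached a mean of 1% and were tested, and 0 passed limma's test with adjustment over all 204274 windows (lowest adjusted p in the locus 0.761), as in the genome as a whole (0%). At an unadjusted p under 0.05 there was 1 window higher in the cKO, beside 1.75% of all windows, and 0 lower, beside 1.05%. The cKO mean was higher in 44 windows and lower in 31, and 58.9% of all windows tested were higher. The groups did not overlap in 4 windows higher in the cKO, against 4.32% of all windows, and in 1 lower window, against 2.29%. Peaks were absent in all 6 libraries from 12 windows (13%, against 15.9% in the genome) and present in all 6 in 4 windows (4.35%, against 4.57%).

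The most covered windows were seen in both genotypes. Window 37030001 to 37040000, in the Pcdha12 segment, was covered to 5%, 12.1% and 20.5% in the cKO and 29.6%, 12.6% and 18.3% in WT. Window 36970001 to 36980000, around the start of Pcdha7, had 25.7%, 17.9% and 0% in the cKO and 0%, 18.1% and 28.8% in WT. Window 37710001 to 37720000, in the gamma array at Pcdhga6 and Pcdhga7, had 12.2%, 19.4% and 18.6% in the cKO and 20.7%, 10% and 5% in WT. The first and the last of these held peaks in 6 of 6 libraries, with overlapping groups. The remaining pair of the top 5, at 37390001 (between Pcdhb8 and Pcdhb9) and 37670001 (Pcdhga2 and Pcdhga3), held peaks in 5 libraries each.

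Of the windows without overlap, the largest difference lay between the alpha and beta clusters. Window 37220001 to 37230000 had 11.3%, 34.9% and 15.4% in the cKO and 6.96%, 0% and 6.33% in WT. The other windows higher in the cKO were 37700001 to 37710000 (7.82%, 16.9% and 12.3% against 0%, 5% and 0%), 37730001 to 37740000 (15.8%, 12.5% and 10% against 2.4%, 4.48% and 0%) and 37400001 to 37410000 (5%, 7.97% and 5% against 0% in each WT library). They touch the segments of Pcdhga5 and Pcdhga6, of Pcdhgb5 and Pcdhga9, and of Pcdhb9, in that order. Window 37020001 to 37030000, at the start of Pcdha12, was lower in the cKO, at 5%, 0% and 0% against 7.94%, 10.6% and 10.8%.

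At single bases the libraries seldom coincided. Peaks of at least 1 library covered 21.1% of the locus (19.1% of the genome), peaks of at least 3 covered 1.36% (1.10%), and peaks of at least 4 covered 0.257% (0.278%). No base was covered in all 6 libraries. The only stretches that reached 5 libraries were at 36989582 to 36990078, before the start of Pcdha8, and 37394732 to 37395359, before Pcdhb9, each with 2 cKO and 3 WT libraries. One 203 bp stretch, 37646413 to 37646615 near Taf7, was covered in all 3 cKO libraries and no WT library, and none was covered in all WT libraries alone. The recurrence of peak positions in the locus was thus close to that of the genome.

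Within each cluster the peaks were unevenly placed, in the same order in 6 of 6 libraries. In the alpha cluster the array of Pcdha1 to Pcdha12 was covered to 7.12%, 4.49% and 3.58% in the cKO and 4.56%, 4.87% and 5.87% in WT. The C-type and constant part of the same cluster (98.762 kb) had 0.506%, 0.807% and 1.6% in the cKO and 0%, 0% and 1.3% in WT, at most 0.442 times the genome. This rests on few peaks: 1, 1 and 1 in the cKO and 0, 0 and 2 in WT. A stretch of 62.515 kb, 37083455 to 37145969, held no peak in any of the 6 libraries and contains the starts of Pcdhac1 and Pcdhac2. The genome has 596 stretches at least as long, which make up 5.36% of it, and its median peak-free stretch is 2.207 kb. In the gamma cluster the array of Pcdhga and Pcdhgb genes had 7.33%, 7.14% and 7.12% in the cKO and 6.47%, 6.87% and 4.59% in WT, and the C-type and constant part (35.464 kb) 5.50%, 4.98% and 0% in the cKO and 0%, 2.46% and 1.41% in WT. This gamma part held 2, 3 and 0 peaks in the cKO and 0, 2 and 1 in WT. It was above the genome in cKO replicates 1 and 2 (1.03 and 1.12 times). In the gamma array the groups did not overlap in covered percent, but they did after division by genome-wide coverage (1.37, 1.61 and 1.96 against 1.66, 1.68 and 1.35). How often stretches of this length show no overlap across the genome was not computed.

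Beta genes were less covered than the sequence between them. The 22 gene spans (75.637 kb) had 7.35%, 2.20% and 1.67% in the cKO and 3.69%, 0.321% and 0.341% in WT. Few peaks touched them, 4, 3 and 3 in the cKO and 4, 1 and 1 in WT. They were above the genome in 1 library (cKO replicate 1, 1.37 times). The sequence between the genes had 9.85%, 5.12% and 4.64% in the cKO and 6.32%, 7.76% and 4.74% in WT, above the genome in 6 of 6 libraries. The order of all 3 pairs held in 6 of 6 libraries also with peak lists of equal length and with the stronger 50% of each list. These settings are a weak check, since the beta gene spans and the alpha C-type part kept the same values in them. With the stronger 50% the gamma C-type part was at 0% in all 6 libraries, so it could not exceed its array. The members share similar coding sequence, the sources used here do not give how reads that match several members were placed, and its part in these differences was not tested.

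**Figure D3:**
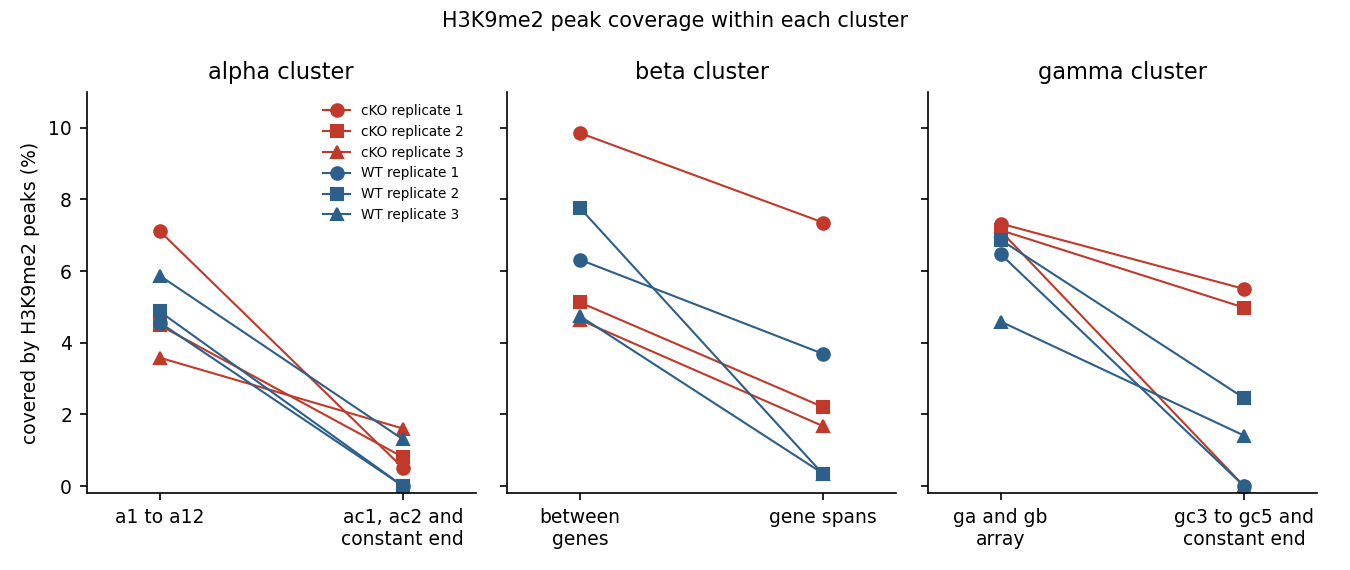
Percent covered by H3K9me2 peaks (vertical axis) in 2 parts of each cluster, with 1 line per library (red cKO, blue WT, marker by replicate number). Each line falls from left to right: the C-type and constant ends and the beta gene spans were less covered than the rest of their cluster in 6 of 6 libraries.

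Gene by gene, the coverage of the span with 5 kb on both sides was tested first. Of the 57 members 54 reached a mean of 1% (13 alpha, 20 beta and 21 gamma), and 0 passed limma's test with Benjamini-Hochberg adjustment over 19016 genes, as in the whole table (0%). The cKO mean was higher in 38 members and lower in 16, beside 71.9% of all genes tested, with a median difference of 0.92 percentage points beside 1.26. Medians were 0.0981 points for alpha, 0.907 for beta and 1.65 for gamma. The groups did not overlap in 8 members higher in the cKO, beside 13% of all genes, and in 0 lower members, beside 1.34%. At an unadjusted p under 0.05 there were 0 higher members, beside 7.43% of genes, and 1 lower, beside 0.941%. The lower gene, named after its values were seen, was Pcdhb6: 0% in each cKO library and 0%, 8.31% and 9.21% in WT (limma adjusted p = 0.568).

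All 8 members without overlap were gamma genes, whose spans share their far end and so are not separate observations. Pcdhga5 had 6.83%, 6.48% and 5.29% in the cKO and 3.62%, 3.75% and 3.90% in WT (limma adjusted p = 0.609). Pcdhgb2 had 6.64%, 7.15% and 5.14% against 4.24%, 3.64% and 3.79% (limma adjusted p = 0.621). Pcdhga4 had 6.45%, 6.95% and 5% against 4.43%, 4.02% and 3.69% (limma adjusted p = 0.667). The 3 spans share nearly all of their bases. All 21 gamma spans had a higher cKO mean, as had 17 of 21 after division by genome-wide coverage and 14 of 20 with peak lists of equal length. Alpha went from 7 of 13 higher to 1 of 13 after that division, and the median of all genes tested moved from 1.26 points to 0.175 times the genome.

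To separate the nested genes, each was given its own segment, from its lowest coordinate to that of the next member of its cluster. Segments were 3.067 to 69.906 kb long, with a median of 7.253 kb. Peaks reached 35, 25 and 26 of the 57 segments in the cKO and 20, 30 and 20 in WT. Only 5 segments held peaks in 6 of 6 libraries (Pcdha7, Pcdha12, Pcdhb8, Pcdhga6 and Pcdhga12), 15 held them in 1 library, and 5 in none (Pcdha9, Pcdha10, Pcdhac1, Pcdhb17 and Pcdhb21). Of 50 segments tested, 29 were higher and 21 lower in the cKO, beside 71.9% higher among all genes and segments. None of the 50 passed limma's test with adjustment over 19012 genes and segments (0%). In the gamma cluster, where all 21 nested spans were higher, 11 of 20 segments tested were higher and 9 lower.

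In the alpha cluster the Pcdha7 segment was the most covered, at 16.8%, 16.8% and 7.95% in the cKO and 15.3%, 10.2% and 22.1% in WT. The Pcdha12 segment, the longest at 69.906 kb, had 5.09%, 5.07% and 3.99% in the cKO and 6.35%, 4.22% and 6.81% in WT. The groups overlapped in both. Pcdha4 (23.6% in cKO replicate 1) and Pcdha6 (29.2% in WT replicate 2) show the opposite pattern, a high value in 1 library and 0% in the other 5. They were named after their values were seen. Of the C-type genes Pcdhac1 had 0% throughout, and Pcdhac2 had 1.11%, 1.76% and 3.51% in the cKO and 0%, 0% and 2.85% in WT.

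Among beta segments, high values alternated with 0% between libraries of the same genotype. The Pcdhb16 segment had 44.5%, 0% and 0% in the cKO and 15.3%, 0% and 3.56% in WT, and 44.5% was the highest value of any member. The Pcdhb12 segment had 11.3%, 0% and 0% in the cKO and 24.4%, 27.2% and 0% in WT. Neither pattern followed genotype. The last 6 beta segments, Pcdhb17 to Pcdhb22, held a peak in at most 1 library each.

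In the gamma cluster each of the 21 segments held a peak in at least 1 library. The Pcdhga6 segment had 19.4%, 16.8% and 24.0% in the cKO and 20.3%, 6.47% and 6.47% in WT. The Pcdhga3 segment had 8.42% in each cKO library and 25.1%, 33.4% and 0% in WT. At the low end, Pcdhgb7 had 9.29% in WT replicate 2 and 0% in the other libraries. Among the C-type genes, Pcdhgc3 had 16.7%, 5.77% and 0% in the cKO and 0%, 4.29% and 5.77% in WT, Pcdhgc4 0%, 14.2% and 0% against 0%, 11.2% and 0%, and Pcdhgc5 2.24%, 2.84% and 0% against 0% in each WT library. All 3 overlapped between the genotypes.

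The groups did not overlap in 3 segments, all higher in the cKO, beside 13% of the genes and segments tested, and in 0 lower ones, beside 1.34%. The Pcdhgb5 segment had 21.4%, 12.6% and 16.8% in the cKO, and all 3 WT libraries were at 0% (limma adjusted p = 0.492). Leaving out each replicate in turn gave differences of 14.7 to 19.1 points, but with the stronger 50% of each list the difference of 16.9 points fell to 2.79. No place in the segment was covered in all 3 cKO libraries: a peak of replicate 3 overlapped that of replicate 1, and the peak of replicate 2 lay apart from both. Within 1 kb of the Pcdhgb5 start coverage was 6.05%, 0% and 0% in the cKO and 0%, 23.9% and 0% in WT. The peak of WT replicate 2 lay just before the segment, so the 0% in WT depends on where the segment begins. The Pcdhb9 segment had 4.62%, 3.40% and 4.62% against 0% in each WT library (limma adjusted p = 0.524), and the Pcdhb1 segment 6.80%, 5.57% and 3.33% against 0%, 2.17% and 0% (limma adjusted p = 0.549). Each Pcdhb9 value came from 1 peak of 500 to 797 bp, and these peaks did not overlap one another. Over the Pcdhb9 span with 5 kb flanks the cKO mean was lower, 5.21% against 8.26%. In the Pcdhb1 segment peaks of cKO replicates 1 and 2 overlapped, and that of replicate 3 lay apart. Over the Pcdhb1 span with 5 kb flanks coverage was 0% in each cKO library and 0%, 5.20% and 0% in WT. That span stayed under the 1% mean and was not tested, and no cKO peak of the segment lay on the gene. At an unadjusted p under 0.05 there were 4 segments higher, beside 7.41% of genes and segments, and 1 lower, beside 0.931%.

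**Figure D4:**
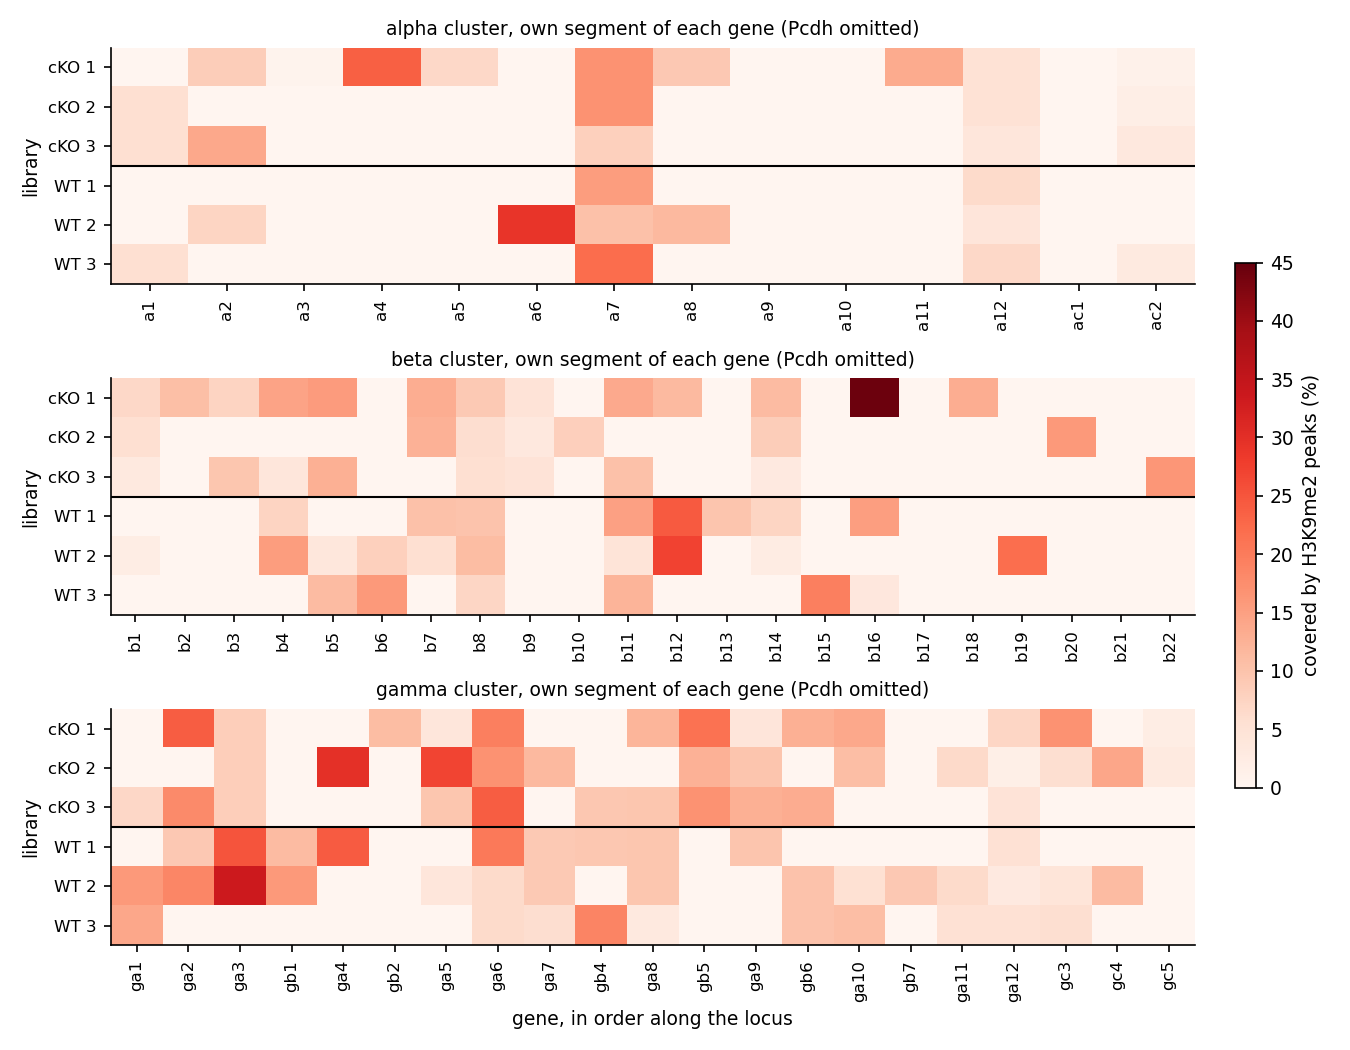
Heat map of the percent of each gene's own segment covered by H3K9me2 peaks (colour scale, 0 to 45%), with 57 genes in order along the locus and 6 libraries (3 cKO above the line, 3 WT under it). The Pcdha7, Pcdha12, Pcdhb8, Pcdhga6 and Pcdhga12 columns are filled in all 6 libraries, and most other cells of the map differ between libraries of 1 genotype.

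H3K9me2 at promoters was scored around the start of each gene, taken as its lowest coordinate, since these genes are transcribed toward rising coordinates. Within 1 kb of the start, peaks were found at 9, 8 and 7 of 57 members in the cKO (15.8%, 14.0% and 12.3%) and at 4, 12 and 5 in WT (7.02%, 21.1% and 8.77%). The shares at the starts of 17274 genes on other chromosomes were 15.2%, 17.2% and 13.2% in the cKO and 8.79%, 15.1% and 11.9% in WT. Members were above those genes in 2 of 6 libraries (cKO replicate 1 and WT replicate 2). No library marked the start of 29 members, and 1 member had a peak in 4 libraries, the most for any.

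Called ATAC peaks in the locus were confined to the gamma cluster and the gene before it in these 2 libraries. The tumour list held 7 peaks in the locus and the spleen list 4, which is 7.68 and 4.39 per Mb against 10.5 and 4.97 per Mb over the autosomes and X. The flanking megabases held 36 and 34 peaks in tumour and 16 and 16 in spleen. The alpha and beta clusters held 0 peaks in either tissue. For each cluster and tissue a count of 0 has an exact 95% upper limit of 3.69 peaks, which covers counting error only. Whether these counts lie below the genome rate was not tested. The gamma cluster held 6 tumour and 3 spleen peaks. Each tissue had 1 library, so no difference between them has a replicate check, and the widths set by the caller (322 bp in tumour and 869 bp in spleen) keep tag values from being compared between them.

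ATAC peaks were rare at the starts of these genes. A peak lay within 1 kb of the start of 4 of 57 members in tumour (7.02%) and 3 in spleen (5.26%), against 49.4% and 37.7% of 17274 genes on other chromosomes. All of them were gamma genes. Pcdhgc3, a C-type gene, had the strongest peak of the cluster in both lists, a normalized tag count (tags per 10000000 of the library, from the caller) of 66.4 in tumour (14.6% of the list from the top by score) and 28.5 in spleen (49.2%), centred 100 and 56 bp before its start. Pcdhgc4, also C-type, had a normalized tag count of 10.6 in tumour, 415 bp before its start, and 14.5 in spleen, 173 bp after it. By score these 2 peaks stood near the end of their lists, at 93.4% from the top in tumour and 94.2% in spleen.

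The other promoter peaks belonged to variable genes of the B type. At Pcdhgb7 the peak had a normalized tag count of 10.2 in tumour and 14.0 in spleen, 20 bp before and 53 bp after the start. At Pcdhgb6 a tumour peak with a normalized tag count of 15.9, 99 bp before the start, overlapped no spleen peak. In the tumour list by score, the Pcdhgb6 peak stood at 65.4% from the top and the Pcdhgb7 peak at 96.8%. The remaining tumour peaks in the cluster had normalized tag counts of 12, 1478 bp before Pcdhgc4, and 8.85, 5528 bp after the start of Pcdhgc5.

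The last peak of each list lay at Taf7, an intronless gene between the beta and gamma clusters that encodes a subunit of the general transcription factor TFIID. Its normalized tag count was 35 in tumour and 44.7 in spleen. H3K9me2 peaks touched it in 4 of 6 libraries, 2 of each genotype. Over the Taf7 span with 5 kb flanks H3K9me2 coverage was 33.9%, 8.25% and 14.0% in the cKO and 3.65%, 19.5% and 0% in WT (limma adjusted p = 0.665). Of 7 tumour ATAC peaks 3 touched an H3K9me2 peak of any library, and of 4 spleen peaks 3 did, against 34.9% and 45.7% of all ATAC peaks. The H3K9me2 libraries were all of tumour Treg and of both genotypes, whereas the ATAC libraries were WT. The spleen shares thus set peaks of different tissues against each other, and the spleen peaks are the wider ones. The Pcdhgc3 promoter peak, the strongest in the gamma cluster, was touched in 1 library (WT replicate 2).

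**Figure D5:**
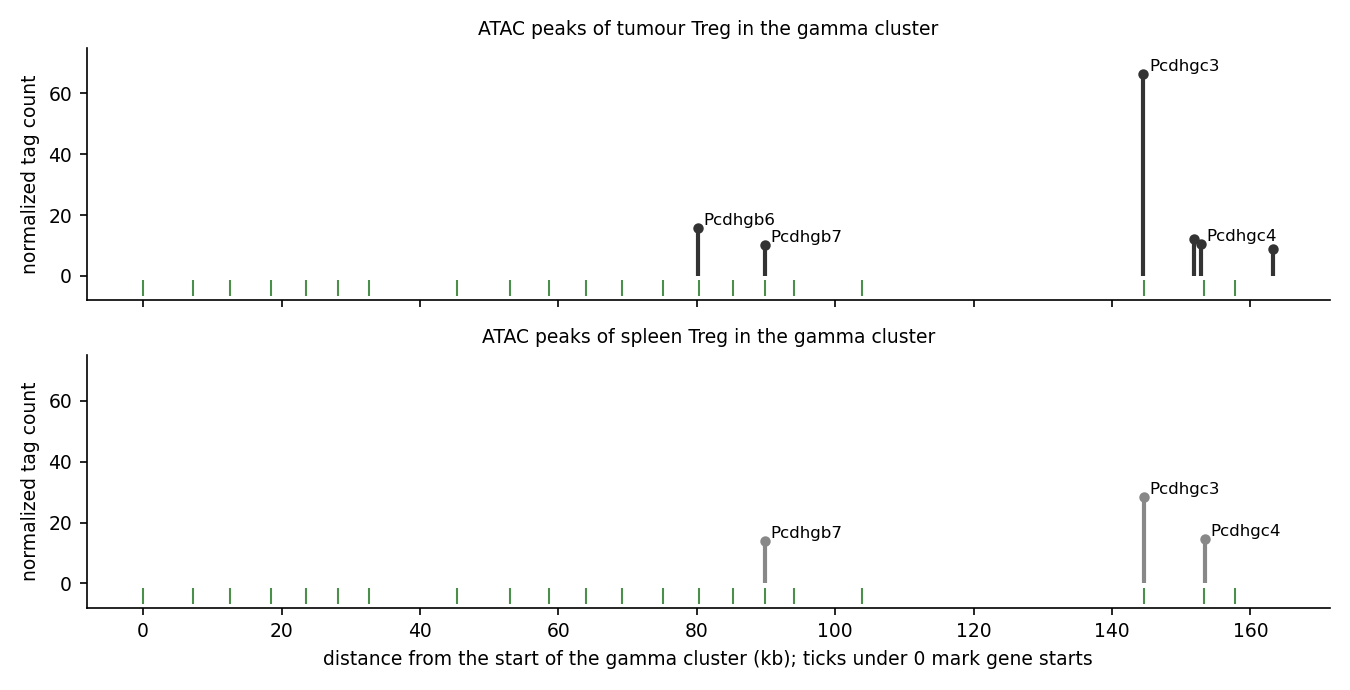
ATAC peaks of the gamma cluster in tumour Treg (upper) and spleen Treg (lower), as normalized tag count (vertical axis) against distance from the start of the cluster in kb, with gene starts as ticks and names at peaks within 1 kb of a start. Pcdhgc3 has the highest peak in both tissues, with normalized tag counts of 66.4 and 28.5.

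Genes that act with the clustered protocadherins were examined through the same fit. Of 17 regulators of the locus (CTCF, cohesin subunits and loaders, DNA methyltransferases, H3K9 methyltransferases and repressors), 15 were tested, 15 had a higher cKO mean and 0 passed limma's test with adjustment. Over all genes tested the cKO mean was higher in 71.9%, and 0% passed. The median difference of the regulators was 1.91 points, beside 1.26 for all genes tested. Setdb1, an H3K9 methyltransferase, had 3.36%, 3.61% and 3.30% in the cKO and 1.14%, 0% and 0% in WT (limma adjusted p = 0.557). Smc3, a cohesin subunit, had 4.70%, 4.75% and 2.71% against 0%, 0.902% and 2.71% (limma adjusted p = 0.568). After division by genome-wide coverage 15 of 15 regulators were still higher in the cKO, with a median difference of 0.389 times the genome beside 0.175 for all genes tested. The share of all genes that was higher on this scale is not given here, and the regulators were not tested as a set.

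Among 9 signalling partners and proteases of the proteins, 7 had a higher cKO mean, beside 71.9% of all genes tested, and 0 passed. Wasf1, an actin regulator, had 9.15%, 7.33% and 10.9% in the cKO and 6.98%, 0.768% and 5.05% in WT (limma adjusted p = 0.568), and Adam10, a sheddase, 3.41%, 5.23% and 3.92% against 1.80%, 2.70% and 1.80% (limma adjusted p = 0.620). The non-clustered protocadherins, adhesion genes outside the locus, had 5 of 11 tested higher, with a median difference of -0.673 points. Of these genes Pcdh1 and Pcdh12 lie within 1 Mb of the locus and are also counted among the genes around it. Pcdh18 had 5.45%, 2.60% and 0% in the cKO and 8.96%, 6.06% and 3.46% in WT (limma adjusted p = 0.609), and Pcdh7 4.49%, 4.22% and 2.25% against 2.66%, 2.06% and 0.729% (limma adjusted p = 0.667). None of the 11 passed limma's test with adjustment, and 3 of 11 were higher after division by genome-wide coverage.

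Genes around the locus were read from the same fit, and none passed. Of 38 genes within 1 Mb, 35 were tested, 24 were higher in the cKO and 11 lower, beside 71.9% higher among all genes tested. The groups did not overlap in 5 higher genes and 1 lower gene, beside 13% and 1.34% of all genes tested. Igip had 3.76%, 11.9% and 10.4% in the cKO, and all 3 WT libraries were at 0% (limma adjusted p = 0.520). Pura, a single-stranded nucleic acid binding protein, had 5.28%, 13.7% and 13.5% against 0%, 0% and 4.55% (limma adjusted p = 0.520). They lie next to each other, before the first alpha gene. Of the 5 genes inside the locus that are not protocadherins, Gm37013, Gm38666 and Gm38667 span nearly all of it and so restate its coverage. Besides Taf7 the remaining gene was Slc25a2, a mitochondrial carrier, at 14.5%, 5.56% and 0% against 0%, 8.81% and 0% (limma adjusted p = 0.744).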

How the data were processed

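H3K9me2 CUT&RUN (6 libraries) and ATAC-seq (2 libraries) peak lists were used as deposited. The build was mm10, and the tools listed were deepTools, HOMER, Picard, SAMtools 1.11, Bowtie2 2.4.2 and Trim Galore 0.6.6, per the submitters' processing notes, which give no roles. Each library had its own peak call by HOMER findPeaks, made by the authors without a control library, per the file headers. H3K9me2 peaks were called in histone style at a peak size of 500 bp with a local p-value threshold of 0.05 in 10 kb, and ATAC peaks in factor style. The deposited tag signal is scaled to 10000000 tags, and the deposited score, the ratio (fold) over the local region, the p-value and, for ATAC, the focus ratio (a fraction of tags) are the authors' values per peak. Region size is deposited in bp. The deposited H3K9me2 lists hold 24.4 to 43.9% of the peaks counted in their own headers, after a filter that no header states. Short peaks that stand out from their surroundings are kept by such calls, so broad H3K9me2 can be missed, and coverage is not its amount.

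Overlapping peaks of a library were merged, and the covered percent was computed for the locus, its clusters, gene spans with 5 kb flanks, own segments and 10 kb windows. Gene positions came from the RefSeq table of GRCm38.p6 (mm10). Regions with a mean under 1% were not tested. Genes and windows were fitted over the whole table with limma 3.58.1 (R 4.3.3; genotype as the single term, trended empirical Bayes, Benjamini-Hochberg adjustment, threshold 0.05). The 4 regions were compared with two-sided exact permutation tests. Coverage of 1 Mb windows was divided by that of the genome. ATAC peaks were counted where they overlapped a region by any length, with exact Poisson limits. Other steps used Python 3.11.15. The limma scripts were tested on simulated data. Alternatives were the scaling, lists of equal length, the stronger 50% of each list, the filter, flanks and window size, the replicate block and each replicate left out.

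Named were, in each cluster, the 2 members with the highest and the 2 with the lowest mean own-segment coverage, up to 3 with the smallest limma p whose groups did not overlap, the C-type members, the 5 most covered and up to 5 non-overlapping windows, every ATAC peak, and the 2 genes of smallest p in each list. The members and lists were chosen with earlier results of these data known. Sequence of the locus was not used here.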

Additional observations from a re-analysis of the deposited data

How the results depend on the processing

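The locus and gamma differences kept their sign under every alternative run, at 0.213 to 1.64 and 0.866 to 1.89 percentage points when each replicate was left out in turn. Divided by genome-wide coverage they were 0.0463 (exact permutation p = 0.7) and 0.138 (exact permutation p = 0.3) times the genome. The alpha difference reversed to -0.116 when divided by genome-wide coverage, to -0.143 with 5 kb added on both sides, and to -0.366 without cKO replicate 1 and -0.0698 without WT replicate 1 (range 0.584 at most when each replicate was left out). The beta difference reversed to -0.0344 when divided by genome-wide coverage and to -0.838 without cKO replicate 1 (1.84 at most). Member genes and 10 kb windows passing limma's adjusted threshold numbered 0 under each of 15 settings, with lowest adjusted p of 0.302 and 0.650. Tumour ATAC peaks in the locus fell from 7 to 2 with the stronger 50% of the list, and to 2 with as many peaks as the spleen list; spleen peaks fell from 4 to 2 with the stronger 50%. These settings keep fewer peaks, and the locus peaks ranked low by score. Their median stood at 85.3% of the list from the top in tumour and at 68.5% in spleen. The median score was 12.5 in tumour and 21.75 in spleen, against 26 and 26.5 in the whole lists. Same-numbered cKO and WT libraries deviated together with r = 0.0754, 0.00479 and 0.0262, and differently numbered ones with r from -0.0542 to 0.0265. No label says whether a number marks a shared animal or batch, and correlations this small cannot decide it. With the replicate block, an alternative added after seeing the data for 1 Mb windows, 1 window of the locus (36000001 to 37000000) passed limma at an adjusted p of 0.0295, against 0 without it. Over all 2571 windows 660 passed with the block (25.7%), against 373 (14.5%) without it. The block changed no call of member genes or 10 kb windows. The headers give the tags of each library and not of the regions without a peak, so low H3K9me2 in an uncovered segment is not detectable from these lists.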
